A study of Mus musculus with 6 samples.

Results

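Histone genes were examined in mouse oocytes ovulated and arrested in the second meiotic metaphase (MII) and at the germinal vesicle (GV) stage. A probe set was taken as a member when its annotation named exactly 1 gene and that gene was a core histone (H2A, H2B, H3 or H4), a linker histone (H1), Slbp or Npm2. This gave 21 probe sets for 14 genes, out of 21646 probe sets tested, of which 19078 named a single gene and together covered 11429 genes. No probe set used here had the symbol Npm2, the gene of the nucleoplasmin that remodels sperm chromatin after fertilisation, so that chaperone was not analysed here. Another 17 probe sets matched several near-identical histone genes, which the array cannot tell apart, and these are given by family.

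Histones package DNA, and their genes fall into classes with different mRNAs. The replication-dependent genes lie in clusters, are used mainly when DNA is copied, and make mRNAs that end in a stem-loop in place of a poly(A) tail; the stem-loop binding protein, encoded by Slbp, binds that end and is needed for processing and translation. Replacement variants such as H2A.X, H2A.Z and H3.3 are encoded by genes mostly outside the clusters, many with polyadenylated mRNAs, and can enter chromatin without replication. Oocytes store histones and histone mRNAs for the embryo and carry their own linker histone, H1f8 (also called H1oo), which takes the place of somatic H1 in oocyte chromatin.

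There were 3 MII and 3 GV samples, each a pool of 300 oocytes hybridised to 1 array. All came from mice aged 22 to 24 days given 5 IU of equine chorionic gonadotropin (eCG), and the sources used here do not give a strain. MII oocytes were ovulated after a further 5 IU of human chorionic gonadotropin (hCG), taken from oviducts 14 h later, freed of cumulus cells with hyaluronidase and chosen for a first polar body. GV oocytes were taken from ovaries 44 to 46 h after eCG and held in meiotic arrest by 5 µM milrinone, a phosphodiesterase inhibitor. Each labelling started from 10 ng of total RNA and ran through 2 rounds of amplification, primed with a mixed primer set and not with oligo(dT) or random hexamers alone. Equal RNA input means that values are relative to the labelled RNA, so that fewer cells of a type and less RNA per cell cannot be told apart.

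All values are log2 expression values as deposited, and differences are MII minus GV on that scale. A probe set was called when limma's Benjamini-Hochberg adjusted p, taken over all 21646 probe sets, was under 0.05. Array medians were 5.49, 5.47 and 5.49 in MII and 6.12, 6.10 and 6.10 in GV, and arrays correlated at 0.988 to 0.991 within a stage and 0.885 to 0.906 between stages. Over all probe sets 10.9% were called higher in MII, 34.1% lower, and the median difference was -0.15. Scaling the arrays in 4 other ways moved the median difference of all probe sets to 0.47 with array medians made equal, 0.19 with quantile normalization, -0.56 with hybridization controls made equal and -1.02 with poly-A controls made equal. The last 2 scales have limits. Poly-A controls averaged 5.14, 5.43 and 5.34 in MII and 4.71, 4.28 and 4.31 in GV samples, all under the median over the tested probe sets (5.85). Hybridization controls averaged 9.86, 9.66 and 9.42 in MII and 9.82, 8.97 and 8.94 in GV samples, so they also varied within a stage. Markers of the oocyte were present: 14 of 15 were measured and all 14 averaged more than 5.85, the median over the tested probe sets, with 3 called higher and 7 lower in MII. H1f8, itself a histone member, was among the 14 and among the 3 called higher. Of 20 cumulus and granulosa markers 11 were measured and 2 of these averaged more than 5.85. Their summed level on a linear scale was 281 to 351 in MII and 456 to 534 in GV samples, with 4 called lower (Inhba, Nr5a2, Krt8 and Fshr) and 0 higher; their part in the histone differences was not tested.

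The members' promoters, the stretch just upstream of each start site, hold the sequence elements through which histone transcription is known to be controlled, and are shown for the 2 genes called higher and for 4 of the genes called lower in MII. Promoters were found for 11 of the 14 genes in the RefSeq table (GRCm38.p6). The 250 bases before the start site were searched on both strands for the CCAAT box (CCAAT, or ATTGG on the other strand), the TATA box (TATAAA or TTTATA), the octamer of H2B promoters (ATTTGCAT or ATGCAAAT) and the H1 box of linker histone promoters (AAACACA or TGTGTTT), and every match is in capitals below. The sequences read 5′ to 3′ on the gene's strand.

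H1f8 (chr6:115944681-115944930, plus strand): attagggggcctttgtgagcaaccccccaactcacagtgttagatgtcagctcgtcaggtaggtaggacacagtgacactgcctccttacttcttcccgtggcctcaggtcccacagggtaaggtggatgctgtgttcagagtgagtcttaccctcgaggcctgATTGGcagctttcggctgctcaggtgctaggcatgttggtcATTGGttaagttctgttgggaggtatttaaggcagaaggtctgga
Slbp (chr5:33652575-33652824, minus strand): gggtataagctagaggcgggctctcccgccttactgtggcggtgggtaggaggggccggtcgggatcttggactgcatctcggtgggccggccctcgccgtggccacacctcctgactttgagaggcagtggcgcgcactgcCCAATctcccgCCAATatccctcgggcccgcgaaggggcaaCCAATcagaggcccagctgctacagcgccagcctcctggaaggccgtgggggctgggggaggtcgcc
H2az1 (chr3:137864237-137864486, plus strand): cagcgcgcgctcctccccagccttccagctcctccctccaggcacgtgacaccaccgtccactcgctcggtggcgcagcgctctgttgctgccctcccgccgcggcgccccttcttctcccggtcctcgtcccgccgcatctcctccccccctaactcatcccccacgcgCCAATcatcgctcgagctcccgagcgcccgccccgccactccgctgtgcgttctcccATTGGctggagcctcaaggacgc
H2az2 (chr11:6444444-6444693, minus strand): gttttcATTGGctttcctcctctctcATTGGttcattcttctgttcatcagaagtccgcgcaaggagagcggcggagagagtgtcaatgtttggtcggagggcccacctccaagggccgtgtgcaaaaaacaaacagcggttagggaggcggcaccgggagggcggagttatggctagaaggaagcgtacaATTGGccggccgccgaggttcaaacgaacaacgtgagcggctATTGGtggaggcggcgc
H2aj (chr6:136807998-136808247, plus strand): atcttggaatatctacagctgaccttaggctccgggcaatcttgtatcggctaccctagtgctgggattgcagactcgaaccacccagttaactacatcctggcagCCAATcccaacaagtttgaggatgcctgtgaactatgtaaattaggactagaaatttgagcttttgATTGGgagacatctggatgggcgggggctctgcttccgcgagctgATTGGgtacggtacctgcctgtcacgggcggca
H1f2 (chr13:23738557-23738806, plus strand): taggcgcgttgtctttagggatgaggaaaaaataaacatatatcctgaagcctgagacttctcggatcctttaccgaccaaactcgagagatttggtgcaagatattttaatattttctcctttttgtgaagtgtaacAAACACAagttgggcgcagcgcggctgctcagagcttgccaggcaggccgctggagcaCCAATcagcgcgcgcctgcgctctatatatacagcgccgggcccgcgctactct

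All 11 member promoters held CCAAT on at least 1 strand, against 33.8% of the 32851 promoters in the table. This was so for the promoters of genes called higher and lower alike: matches stood in those of H1f8 and Slbp as well as in those of H2az1, H2az2, H2aj and H1f2. The H1 box was found in 2 of 11, those of the linker histone genes H1f2 and H1f6, against 6.25% of all promoters, and the H1f8 promoter had no match to it. The octamer was found in 2 of 11, those of H2aw and H2bc18 (1.6% of all promoters), and TATAAA in 1 of 11 (12.4%). That match was TTTATA in the H2bc22 promoter, 212 to 207 bases before the start site. Only exact letters were searched, so near matches such as tatata in the H1f2 promoter were not counted. These are letter matches, not measured binding sites.

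Of the 21 member probe sets, 2 were called higher in MII, 10 lower and 9 not called, beside 10.9% higher, 34.1% lower and 45.0% in either direction among all probe sets. The groups did not overlap in 14, with MII above GV in 2 and below in 12, against 14.6% above, 39.4% below and 54.0% in all among the probe sets tested. The median member difference was -0.35. Where a gene had several probe sets, 0 genes had sets called in opposite directions on the deposited scale. With array medians made equal, H2az2 and H2aj each had sets called in opposite directions. Values were low for many: 14 of the 21 probe sets averaged less than 5.85, and no filter removed them. Of the 7 above it, from 6 genes, those of H2ax, H2az2 and H2aj were above it through GV alone, with MII means of 5.68, 4.88 and 5.11. Both rises were negative with poly-A controls made equal, 9 of the 10 falls kept their sign on all 5 scales, and 3 kept their call on all 5.

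**Figure D1:**
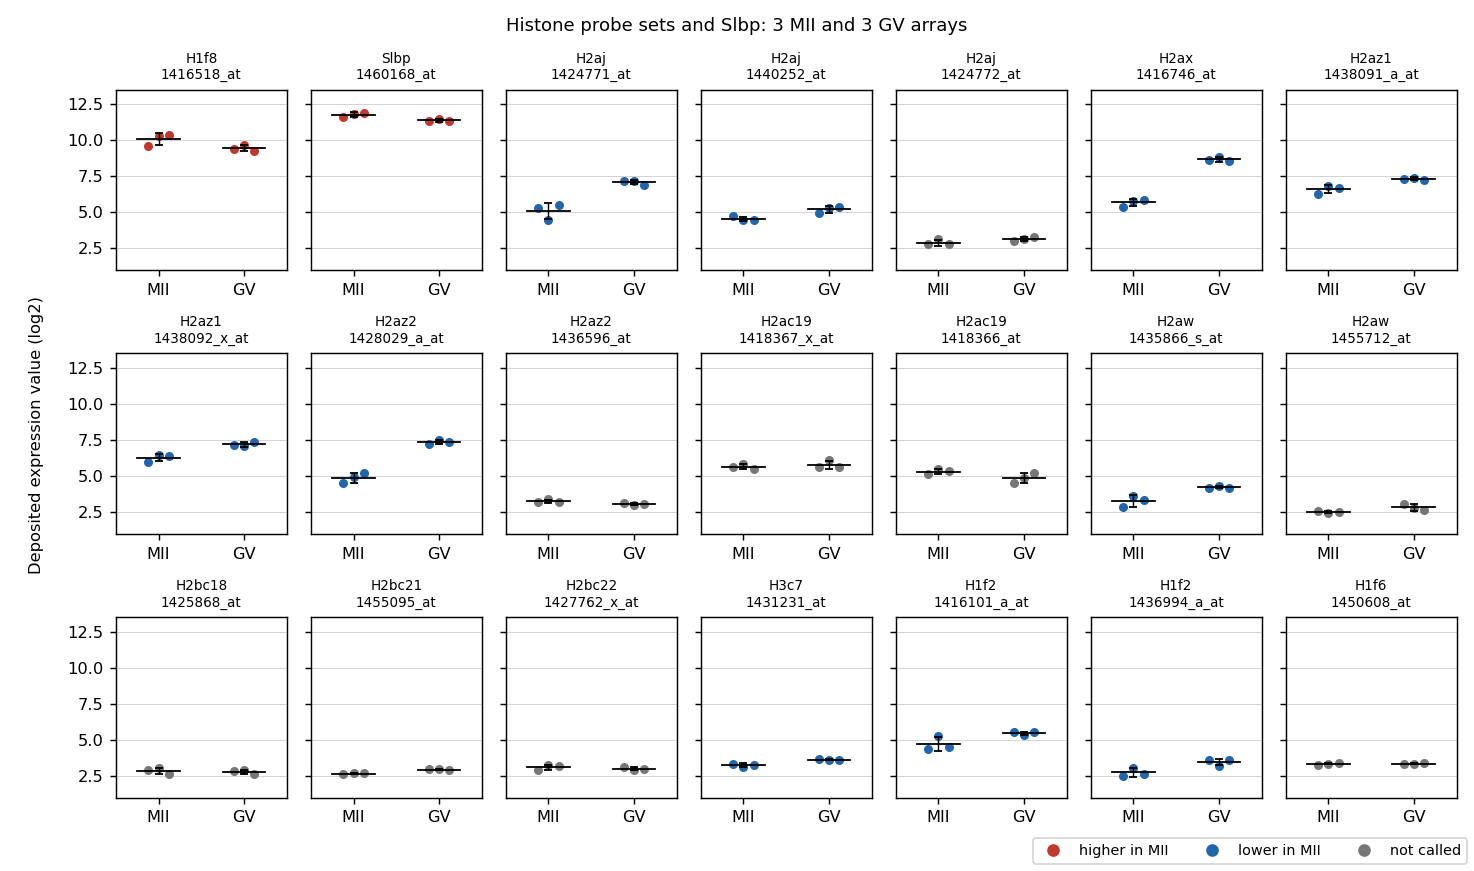
Deposited log2 expression values of the 21 member probe sets in 3 MII samples (left in each panel) and 3 GV samples (right); points are arrays, long bars means, short bars SD, and colour gives the call. H2ax, H2az2 (1428029_a_at) and H2aj (1424771_at) show the widest gaps between stages among the members, with MII below GV, and many replication-dependent genes lie near the bottom of the scale at both stages.

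The oocyte linker histone and the stem-loop binding protein were the 2 members called higher in MII. H1f8 had 9.61, 10.29 and 10.39 in MII and 9.40, 9.65 and 9.25 in GV samples. Its stages overlapped, the lowest MII value lying under the highest GV value, and MII was higher by 0.66 ± 0.21 (SE, n = 3 each, limma adjusted p = 0.028), more than the difference of 94.1% of all probe sets. H1f8 was at -0.21 with poly-A controls made equal and at 0.26 and not called with hybridization controls made equal. The call also rested on single libraries: without GV replicate 1, GV replicate 3, MII replicate 2 or MII replicate 3 the limma adjusted p was 0.061, 0.092, 0.095 and 0.1.

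Slbp had 11.60, 11.79 and 11.91 in MII and 11.36, 11.44 and 11.29 in GV samples. All 3 MII values were above all 3 GV values, by 0.40 ± 0.14 on average (SE, n = 3 each, limma adjusted p = 0.039). The direction turned to -0.47 with poly-A controls made equal and to -0.000906 with hybridization controls made equal. Leaving out MII replicate 3 gave 0.33 with a limma adjusted p of 0.13, and the call was also lost without any GV replicate (0.077, 0.062 and 0.1) or MII replicate 2 (0.094).

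Among the replacement variants, 6 of 8 probe sets from 4 genes were called lower in MII and 0 higher, with a median difference of -0.80. Over all probe sets 34.1% were called lower and 10.9% higher, and sets of 1 gene are not independent. H2ax, whose protein is phosphorylated at DNA double-strand breaks, showed the largest difference of any member. It had 5.37, 5.81 and 5.87 in MII and 8.61, 8.82 and 8.55 in GV samples. The stages were far apart beside the spread within each, and the fall was -2.98 ± 0.17 (SE, n = 3 each, limma adjusted p = 3.2e-07), a fold of 7.89. Only 3.32% of all probe sets had a lower difference, and on the other scales it ran between -2.36 and -3.85, called in each.

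H2A.Z, a variant placed around transcription start sites, is encoded by H2az1 and H2az2. For H2az2 the probe set with the higher mean (1428029_a_at) had 4.53, 4.92 and 5.19 in MII and 7.23, 7.51 and 7.40 in GV samples. MII lay below GV in all samples, by -2.50 ± 0.18 (SE, n = 3 each, limma adjusted p = 1.8e-06), and it was called lower on every scale (-1.88 to -3.37). The second H2az2 probe set (1436596_at), near the bottom of the scale, differed by 0.20 (limma adjusted p = 0.26). It was called higher with array medians made equal (0.82) and with quantile normalization (0.36), opposite to 1428029_a_at. With poly-A controls made equal it was called lower (-0.67).

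Both H2az1 probe sets were called lower. The first (1438091_a_at) had 6.30, 6.85 and 6.71 in MII and 7.34, 7.41 and 7.20 in GV samples, a difference of -0.70 ± 0.17 (SE, n = 3 each, limma adjusted p = 0.0068). The second (1438092_x_at) had 5.99, 6.47 and 6.41 in MII and 7.18, 7.06 and 7.37 in GV samples, a difference of -0.91 ± 0.17 (SE, n = 3 each, limma adjusted p = 0.0013). Stages were apart in both, but neither was called once array medians were made equal (-0.07 and -0.29) or values quantile normalized (-0.03 and -0.24). A further pair of probe sets, annotated to H2az1 together with a predicted copy, were also called lower, by -1.04 (limma adjusted p = 0.0054) and -0.54 (0.026). With array medians made equal these were at -0.41 and 0.081 and not called, and the second set was also not called without GV replicate 1, GV replicate 3, MII replicate 1 or MII replicate 3 (-0.46 to -0.50).

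H2aj encodes an H2A variant that differs from the usual H2A mainly at its tail. Its highest probe set (1424771_at) had 5.33, 4.48 and 5.53 in MII and 7.16, 7.20 and 6.91 in GV samples. All MII values were lower, by -1.98 ± 0.25 (SE, n = 3 each, limma adjusted p = 9.1e-05), and the call held on every scale (-1.35 to -2.85). A second set (1440252_at) had 4.72, 4.50 and 4.48 in MII and 4.95, 5.32 and 5.40 in GV samples, with a difference of -0.66 ± 0.16 (limma adjusted p = 0.0074) that was not called with array medians made equal (-0.03) or quantile normalization (-0.19). The third (1424772_at) differed by -0.24 (limma adjusted p = 0.25). With array medians made equal it was at 0.38 and called higher, opposite to 1424771_at, and with poly-A controls made equal it was called lower (-1.11).

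**Figure D2:**
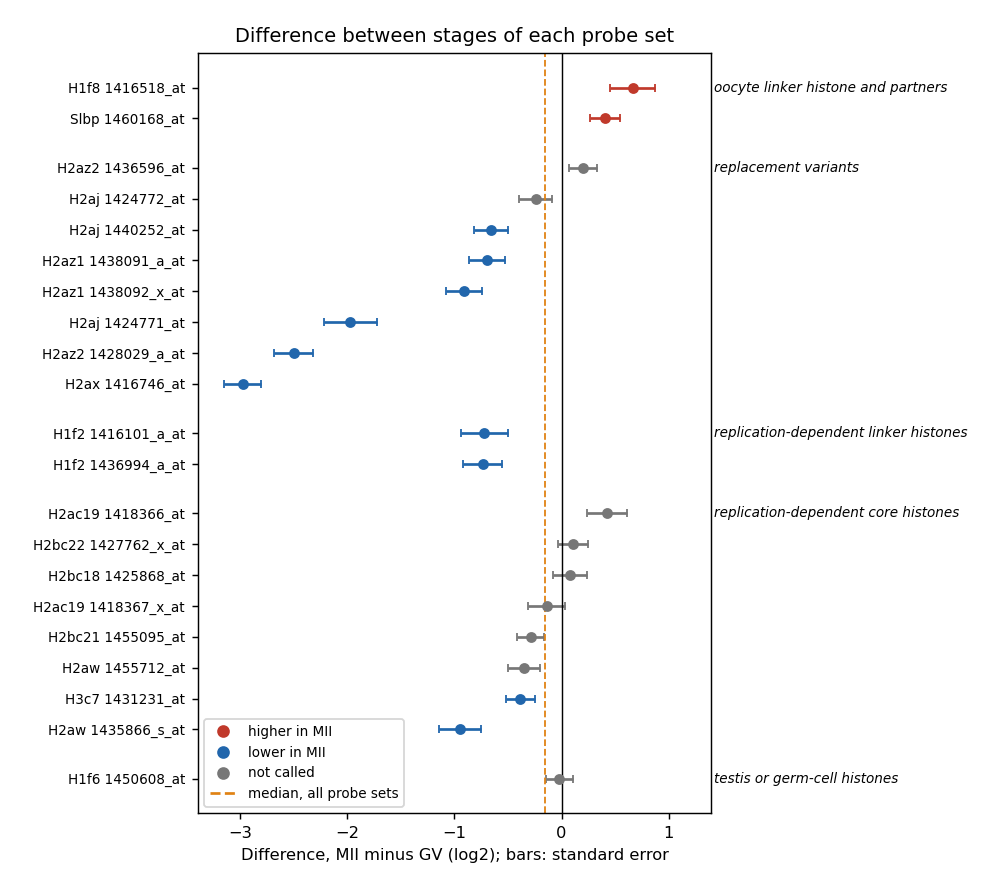
Difference between stages, MII minus GV on the log2 scale, for each member probe set with its standard error (bars), grouped by class; the dashed line is the median of all probe sets at -0.15. The replacement variants reach -2.98 (H2ax), while the replication-dependent core genes lie between -0.95 and 0.43.

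For the replication-dependent core genes most probe sets that name a single gene were not called. Of 8 probe sets from 6 genes, 2 were called lower and 0 higher, beside 34.1% lower and 10.9% higher over all probe sets. The differences ran between -0.95 and 0.43 with a median of -0.21, and 0 of the 8 averaged more than 5.85. H2aw, an H2A gene of a small cluster on chromosome 11, had 2.84, 3.65 and 3.35 in MII and 4.16, 4.31 and 4.21 in GV samples for 1435866_s_at. MII was lower in every sample, by -0.95 ± 0.20 (SE, n = 3 each, limma adjusted p = 0.003), with no call at equal array medians (-0.32). Its other probe set (1455712_at) differed by -0.35 (limma adjusted p = 0.086).

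H3c7, a histone H3 gene of the large cluster on chromosome 13, had 3.35, 3.10 and 3.28 in MII and 3.67, 3.63 and 3.59 in GV samples. The stages did not overlap, yet the difference was small at -0.38 ± 0.13 (SE, n = 3 each, limma adjusted p = 0.041), turned to 0.24 with array medians made equal, and was not called when any 1 library other than MII replicate 1 was left out (-0.31 to -0.40, limma adjusted p = 0.072 to 0.14). Among the genes not called, H2ac19 (an H2A gene) had 5.14, 5.50 and 5.33 in MII and 4.56, 4.88 and 5.25 in GV samples for 1418366_at. This was a difference of 0.43 ± 0.19 (limma adjusted p = 0.096), and it passed the threshold at equal array medians (1.05), after quantile normalization (0.94) and without GV replicate 3 (0.60). The H2B genes H2bc18, H2bc21 and H2bc22 differed by 0.08, -0.29 and 0.11, each within the range that limma did not call (adjusted p = 0.71, 0.092 and 0.59).

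For the replication-dependent linker histone H1f2, one of the somatic H1 genes, both probe sets were called lower. The first (1416101_a_at) had 4.40, 5.30 and 4.54 in MII and 5.52, 5.34 and 5.53 in GV samples, a difference of -0.72 ± 0.22 (SE, n = 3 each, limma adjusted p = 0.023). The second (1436994_a_at) had 2.53, 3.09 and 2.64 in MII and 3.62, 3.24 and 3.61 in GV samples, a difference of -0.74 ± 0.19 (limma adjusted p = 0.0086). In both sets MII replicate 2 was close to GV, and with array medians made equal the differences were -0.10 and -0.11 and not called. The first set also lost its call without GV replicate 1, GV replicate 3, MII replicate 1 or MII replicate 3 (limma adjusted p = 0.055, 0.065, 0.082 and 0.081). The testis linker histone H1f6 differed by -0.02 (limma adjusted p = 0.90; 0.60 with array medians made equal).

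**Figure D3:**
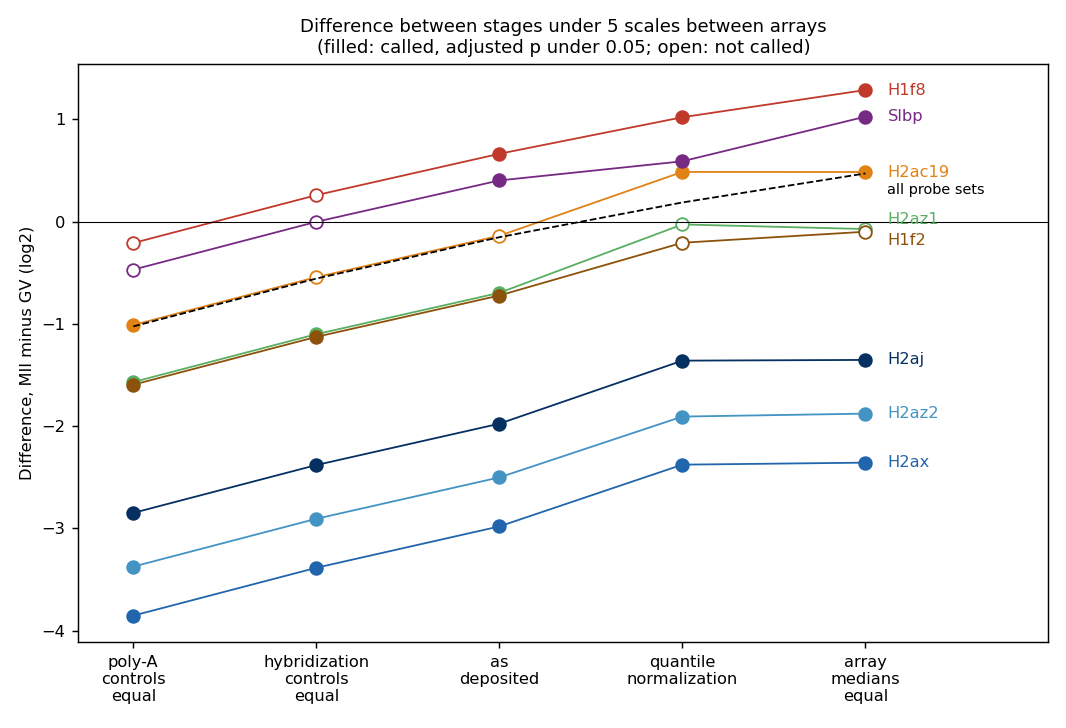
Difference between stages (MII minus GV, log2) of 8 member probe sets under 5 scales between arrays; filled points were called and open points were not, and the dashed line follows the median of all probe sets. H2ax, H2az2 and H2aj stayed called lower on each scale, while H1f8 and Slbp were below 0 with poly-A controls made equal.

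Values set against each other within an array are free of a shift between arrays that is the same for every probe set. Quantile normalization is not such a shift and can change them. From the deposited values 4 such log2 ratios were formed, for pairs picked after their values were seen, so they carry no test. Their absolute size has no meaning, since probes differ in brightness, and only the change between stages is read. Values per sample are for the probe set with the highest mean of each gene or family. H1f8 over H1f2 was 5.21, 4.99 and 5.85 in MII and 3.88, 4.31 and 3.71 in GV samples, higher in MII by 1.39 (1.4 with the other H1f2 set). H2az2 over H2az1 was -1.77, -1.93 and -1.52 in MII and -0.10, 0.10 and 0.20 in GV samples, a change of -1.81 for 1428029_a_at over 1438091_a_at. The direction depended on the H2az2 set: with 1436596_at in its place the change was 0.89, and with 1438092_x_at for H2az1 the 2 changes were -1.59 and 1.11. H2ax over H2az1 was -0.93, -1.04 and -0.84 in MII and 1.28, 1.41 and 1.34 in GV samples, a change of -2.28 (-2.07 with the other H2az1 set). None of these 3 ratios overlapped between stages for the sets of highest mean. Among single probe sets 54.0% did not overlap, and no such share was taken over other pairs.

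The 17 probe sets matching several histone genes held 1 called higher and 9 called lower in MII, with 7 not called and a median difference of -0.64. Among all probe sets 10.9% were called higher and 34.1% lower. In 12 of the 17 all MII values were below all GV values, and in 0 the reverse, against 39.4% and 14.6% of all probe sets. Sets of a family often named the same genes, so they are not independent. For H2B, the probe set matching 3 genes (1418072_at) had 6.18, 6.29 and 6.78 in MII and 8.43, 8.0 and 8.04 in GV samples. The stages were clearly apart, by -1.74 ± 0.19 (SE, n = 3 each, limma adjusted p = 3.7e-05), and the other H2B sets gave -0.65 (0.015) and -0.32 (0.14). The set at -0.65 was at -0.02 with array medians made equal and was not called without GV replicate 2, GV replicate 3 or MII replicate 3 (-0.55 to -0.57), and the set at -0.32 was called without GV replicate 3 (-0.46, limma adjusted p = 0.044).

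For H4, matched as 13 genes, 1422948_s_at had 5.24, 5.51 and 5.45 in MII and 6.31, 6.84 and 6.49 in GV samples. MII was lower by -1.14 ± 0.17 (SE, n = 3 each, limma adjusted p = 0.00028), and 1422947_at was lower by -1.43 (6.4e-05). The remaining H4 set (1424854_at) differed by 0.11 (0.59). It was called higher with array medians made equal (0.73) and with quantile normalization (0.47), and lower with poly-A controls made equal (-0.76). The H3 set matching 12 genes (1460314_s_at) went the other way, with 8.60, 9.22 and 9.59 in MII and 8.18, 8.53 and 8.62 in GV samples. Its stages overlapped, the difference was 0.70 ± 0.24 (SE, n = 3 each, limma adjusted p = 0.038), and it was at -0.18 with poly-A controls made equal and not called with hybridization controls made equal or without GV replicate 1, GV replicate 2, MII replicate 2 or MII replicate 3 (0.47 to 0.74, limma adjusted p = 0.072 to 0.13). The ratio of 1460314_s_at (H3) over 1422948_s_at (H4) within arrays was 3.36, 3.71 and 4.14 in MII and 1.87, 1.70 and 2.13 in GV samples, higher in MII by 1.84 with no overlap. This pair too was picked after its values were seen. Over all 9 pairs of H3 and H4 sets the change ran between -0.75 and 2.12, above 0 in 7 and below 0 in 2, both with 1424854_at. The other H3 sets were at -0.64 (0.069) and -0.28 (0.15), and the first of these was called lower without GV replicate 1 (-0.84) or MII replicate 2 (-0.91).

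The 5 probe sets for H3.3, the H3 variant laid down outside replication, disagreed among themselves. MII was lower by -1.58 (1423262_a_at, limma adjusted p = 2.5e-05) and -1.0 (1423263_at, 0.00081, but -0.38 and not called with array medians made equal). The remaining 3 gave -0.35 (0.071), 0.19 (0.41) and 0.10 (0.56). The last 2 were called higher with array medians made equal (0.81 and 0.73) and with quantile normalization (0.48 and 0.35). With poly-A controls made equal they were called lower (-0.69 and -0.77). MacroH2A, an H2A variant with a large extra domain that is known from silenced chromatin, had a several-gene set at -0.95 (limma adjusted p = 0.00018).

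**Figure D4:**
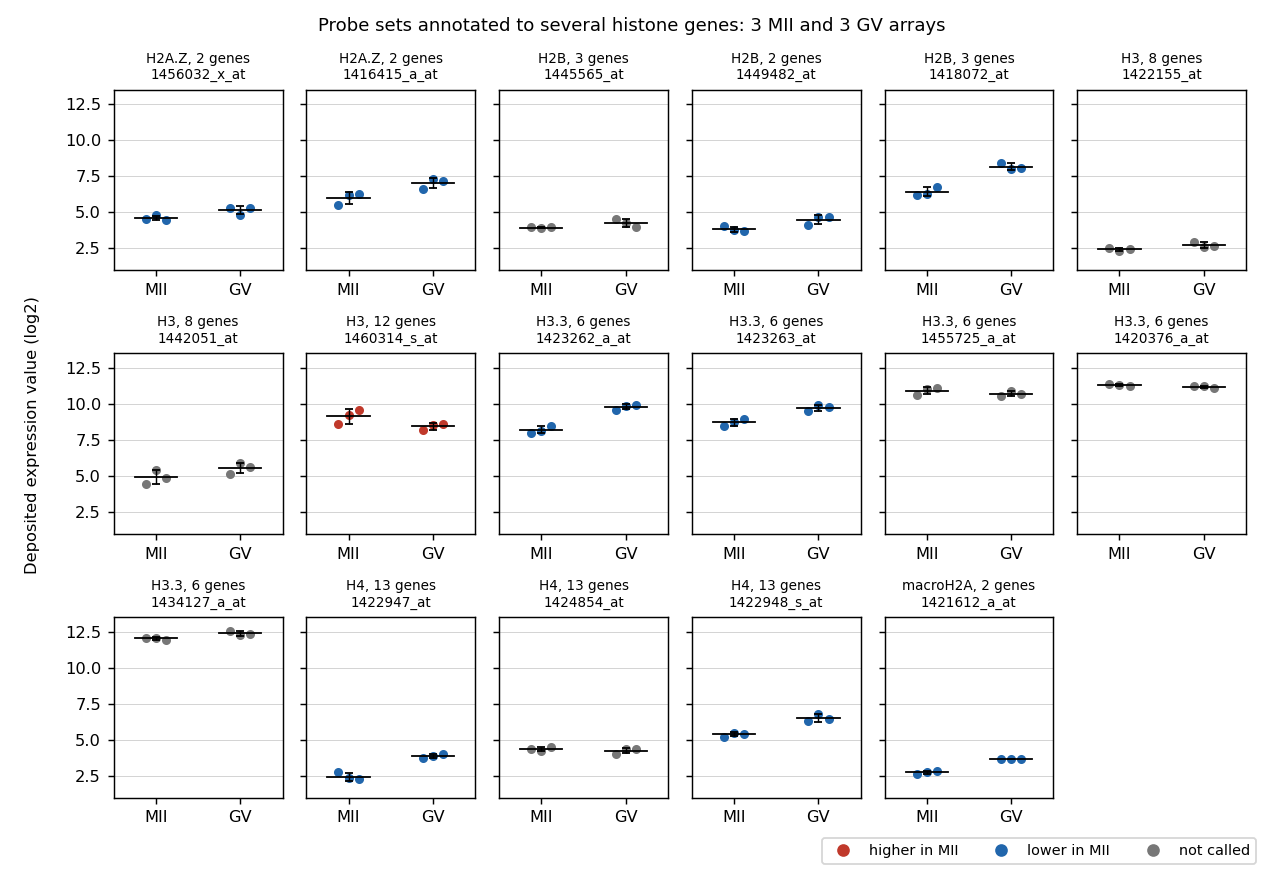
Deposited log2 expression values of the 17 probe sets annotated to several histone genes, in 3 MII samples (left) and 3 GV samples (right); points are arrays, long bars means, short bars SD, and titles give the family and the number of genes matched. The H2B set 1418072_at and an H4 set (1422948_s_at) lie lower in MII, the H3 set 1460314_s_at higher, and the 5 H3.3 sets do not share one pattern.

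Genes that make, carry and deposit histones were taken as 4 lists with 1 probe set per gene, the one with the highest mean. Of 98 listed genes 86 were measured, with 11 called higher in MII, 41 lower and 34 not called and a median difference of -0.38, beside 10.5% higher and 37.8% lower over all 11429 genes (median -0.20). These shares also stand beside the counts of each list below. The 11 rises depended on the scale: 9 of them were below 0 with poly-A controls made equal, and 1 was still called with hybridization controls made equal. Of all 41 falls, 34 kept their sign and 23 kept their call on all 5 scales. The 4 largest falls of each list, picked by size, kept both.

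For transcription, end processing and decay of histone mRNA, 3 of 33 measured genes were called higher and 15 lower (median -0.34). Lsm10, a protein found only in the U7 particle that guides cleavage of replication-dependent histone mRNA, had 4.46, 4.11 and 4.29 in MII and 8.18, 8.64 and 8.16 in GV samples. Its stages were farther apart than those of any other gene in the 4 lists, at -4.04 ± 0.17 (SE, n = 3 each, limma adjusted p = 6.1e-08). Cpsf3, the nuclease that makes the cut, fell by 1.80 (9.9e-06), and Srrt and Ncbp1, partners at the mRNA cap, were lower at -1.81 (7.1e-06) and -1.44 (1.2e-05). Another 15 genes of the list were not called, among them Lsm11 at 0.22 (limma adjusted p = 0.44) and Cpsf2 at 0.05 (0.89). The 3 called higher were Snrpg at 0.57 (0.0073) and Snrpd3 at 0.51 (0.043), shared Sm proteins of the U7 and spliceosomal particles, and Lsm1 at 0.54 (0.03), a subunit of a ring that binds mRNA ends for decay; with poly-A controls made equal they were at -0.30, -0.36 and -0.33. A second Snrpd3 probe set was at -0.06 and not called. Without GV replicate 1, GV replicate 3, MII replicate 2 or MII replicate 3 neither Lsm1 (0.44 to 0.51) nor Snrpd3 (0.35 to 0.59) was called.

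Among chaperones and importers of H2A-H2B and linker histones, 1 of 13 was called higher and 8 lower (median -0.73). Ncl (nucleolin) fell by 2.97 (limma adjusted p = 1.2e-06) and its other 3 probe sets were called lower too. Ipo9, an importin for H2A-H2B, fell by 2.07 (4.8e-05), although 1 of its further sets, at -0.34, was not called. Supt16, a subunit of the FACT complex, fell by 1.23 (2.8e-05; its other set was at -0.22 and not called), and Ipo7, an importer of H1, fell by 1.16 (0.00034). Spty2d1 was the one called higher, at 0.64 (0.0027). It is listed here although its protein is better known for binding H3-H4, it was at -0.23 with poly-A controls made equal, and its second probe set was called lower (-0.45).

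Of 21 measured H3-H4 chaperones, 3 were called higher and 9 lower (median -0.01). The 3 higher were Ubn1, Ubn2 and Cabin1, known as partners of HIRA in the deposition of H3.3, while Asf1a, another HIRA partner in the list, was lower (-0.69, limma adjusted p = 0.02). A further Asf1a probe set was at -0.01 and not called, and Asf1b, also in the list, was at 0.39 (0.11) and not called. Hira itself was not measured. Ubn1 had 8.06, 8.41 and 7.22 in MII and 6.95, 5.41 and 6.08 in GV samples, a wide spread around a difference of 1.75 ± 0.38 (SE, n = 3 each, limma adjusted p = 0.004), and its other probe set was at -0.11 and not called. Ubn2 was at 0.92 (0.0013) and at 0.05 with poly-A controls made equal, with another set called lower (-0.63). Cabin1 was at 0.72 (0.0047) and at -0.15 with poly-A controls made equal. Its other set, at 0.34, was not called. Dnajc9, a co-chaperone of H3-H4, fell by 2.74 (3.6e-07), Supt6, which travels with RNA polymerase II, fell by 2.34 (2.2e-06), Tonsl, which reads newly made H4 after replication, fell by 1.96 (7.6e-06), and Mis18a, which prepares centromeres for the H3 variant CENP-A, fell by 1.81 (0.0026).

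Of 19 measured subunits of the complexes that exchange H2A.Z, 4 were called higher and 9 lower (median -0.34). Znhit1, a subunit of the SRCAP complex, had 3.13, 3.85 and 3.57 in MII and 6.71, 7.26 and 6.85 in GV samples, a difference of -3.42 ± 0.21 (SE, n = 3 each, limma adjusted p = 5.5e-07), and its second set was called lower by -0.51. Ruvbl2, an ATPase shared by these complexes, fell by 2.36 (1.3e-06), Dmap1 fell by 2.17 (3.2e-05) and the INO80 subunit Actr8 fell by 1.95 (4.4e-06). The higher calls were Mbtd1 at 0.85 (0.013), Vps72, which binds H2A.Z, at 0.71 (0.048, stages overlapping), Ino80c at 0.71 (0.013) and Brd8 at 0.45 (0.021), and all 4 were below 0 with poly-A controls made equal (-0.021, -0.17, -0.17 and -0.42). Vps72 was not called without GV replicate 1, GV replicate 3, MII replicate 2 or MII replicate 3 (0.50 to 0.72), nor Brd8 without GV replicate 3 (0.44) or MII replicate 2 (0.37). Of the other Brd8 probe sets 1 was called higher (0.77) and 3 were not called.

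**Figure D5:**
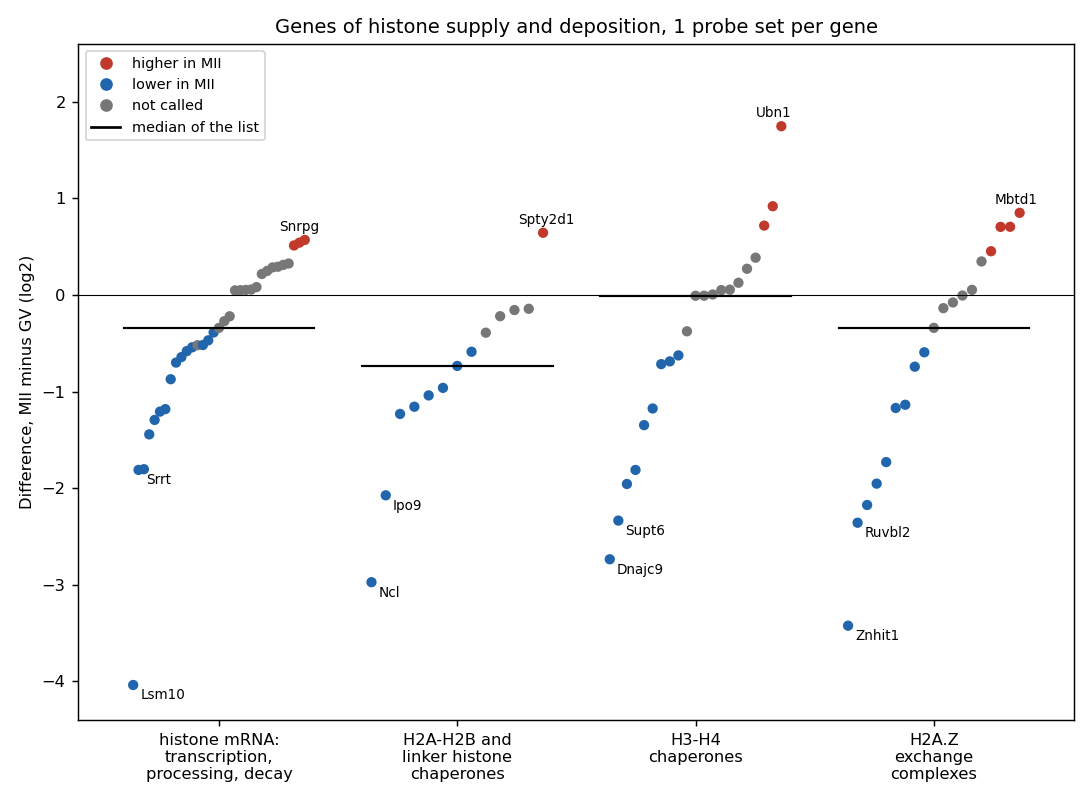
Difference between stages (MII minus GV, log2) of the 86 measured genes in 4 lists, 1 point per gene in order of size, coloured by call, with the list median as a bar. Lsm10 (-4.04) and Znhit1 (-3.42) lie lowest, and Ubn1 (1.75) lies highest.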

How the data were processed

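RNA of 3 MII and 3 GV pools was measured on 1 short-oligonucleotide array each. The authors deposited log2 expression values for 21702 probe sets; RMA and affy are listed, without versions, in the submitters' processing notes. The sources used here do not say what decided which probe sets were kept, nor name a genome build. The values ran from 1.85 to 13.3, and 7077 distinct values recurred identically in all 6 arrays. The 56 control features were set aside, and 21646 probe sets were tested without a filter. Of these, 550 named several genes and 2018 none. Detection calls were not used here, so low values cannot be told from background, and the number of arrays limits the precision.

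Stages were compared with limma 3.58.1 (lmFit then eBayes, under R 4.3.3, stage only, 2-sided, Benjamini-Hochberg over all tested probe sets). The fit was tested on simulated data. All members are given. Each list's called genes are named in order of size, up to 4 in either direction. A few others, such as Asf1a, were named outside that rule. Titles number the samples of each stage 2 and 3 and leave the first without a number, which was called 1 here; same-numbered deviations correlated at 0.09, 0.03 and 0.03, so numbers were not taken to pair samples. In all, 15 alternatives were tried: scales between arrays, filters, no moderation, the replicate block and leaving out each sample. The labels' design states biological replicates, but not whether pools shared mice. The members and lists were chosen with earlier results of these data known, and the pairs for ratios within arrays were chosen after seeing the values.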

Additional observations from a re-analysis of the deposited data

How the results depend on the processing

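The calls depended most on the scale between arrays, and which scale is right was not tested. Members called higher in MII, 2 as deposited, numbered 10 with array medians made equal, 5 with quantile normalization, 0 with hybridization controls made equal, 0 with poly-A controls made equal, 1 without variance moderation and 0 to 2 with each sample left out. Over all probe sets, 55.5%, 34.8%, 0.48% and 0.3% were called higher on those 4 scales. In the same order, 19.9%, 22.1%, 33.2% and 84.9% of all probe sets were called lower. Members called lower, 10 as deposited, numbered 3 with array medians made equal, 5 with quantile normalization, 18 with poly-A controls made equal, 5 among probe sets above the median, 4 without probe sets of the _s_at, _x_at and _a_at types, and 8 to 9 with each sample left out. These 2 filters left 7 and 13 members, of which 7 and 6 had been called in either direction, and all of those calls were kept. With the replicate number as a block, 1 member was called higher and 9 lower, Slbp and H3c7 missing the threshold (limma adjusted p = 0.058 and 0.061). Genes of the 4 lists called higher, 11 as deposited, numbered 39 with array medians made equal, 30 with quantile normalization, 1 with hybridization controls and 1 with poly-A controls made equal, 6 without moderation and 7 to 11 with each sample left out. Those called lower, 41 as deposited, numbered 24, 25 and 74 with array medians made equal, quantile normalization and poly-A controls made equal.

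The median difference of the replacement variants, -0.80, was -0.18 with array medians made equal, -0.21 with quantile normalization, -1.21 with hybridization controls, -1.68 with poly-A controls and -1.98 among probe sets above the median, a filter that H2ax, H2az2 and H2aj passed through GV alone. That of the replication-dependent core genes, -0.21, was 0.41, 0.0086, -0.62 and -1.09 on the same 4 scales, and that of H1f2, -0.73, was -0.11, -0.40, -1.13 and -1.60. Probe sets not called as deposited that changed sign were H2bc18 at -0.79 and H2bc22 at -0.77 with poly-A controls made equal, H2bc21 at 0.34 with array medians made equal, H2ac19 (1418367_x_at) at 0.49 with array medians made equal and 0.49 with quantile normalization, and Cenpa at 0.57 and 0.43 on those scales. Others were H2ac19 (1418366_at) at -0.45 with poly-A controls made equal, and with array medians made equal H2aw (1455712_at) at 0.27, H2B (1445565_at) at 0.31, H3 (1422155_at) at 0.34 and H3.3 (1434127_a_at) at 0.28. Further sign changes without a call were at -0.32 to -0.21 with hybridization controls made equal (H2az2, H2bc18, H2bc22, 2 H3.3 sets and 1 H4 set), and H1f6 at 0.16 and H2B (1445565_at) at 0.0021 with quantile normalization. The report also gives H1f8 -0.21, Slbp -0.000906 and -0.47, H2aj 0.38, H2az2 -0.67, H3c7 0.24, H1f6 0.60, the several-gene sets for H2A.Z 0.081, H3 -0.18, H3.3 -0.77 and -0.69 and H4 -0.76, Snrpg -0.30, Lsm1 -0.33, Snrpd3 -0.36, Spty2d1 -0.23, Cabin1 -0.15, Mbtd1 -0.021, Vps72 -0.17, Ino80c -0.17 and Brd8 -0.42. Of the 12 member calls as deposited, 5 held with array medians made equal, 7 with quantile normalization, 9 with hybridization controls and 10 with poly-A controls made equal, and 0 turned to a call in the other direction.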

Other observations

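Histone variant genes whose symbols lie outside the naming rule were also measured. Macroh2a1, which encodes the main macroH2A, had 6.36, 5.83 and 6.31 in MII and 5.32, 5.12 and 5.29 in GV samples. Its stages did not overlap, with MII higher by 0.92 ± 0.17 (SE, n = 3 each, limma adjusted p = 0.0013), though it was not called with hybridization controls made equal (0.52) or poly-A controls made equal (0.05). Macroh2a2 and Macroh2a3 were called lower, by -0.96 (0.00036) and -0.71 (0.0021), but not with array medians made equal (-0.33 and -0.08). Cenpa, the H3 variant of centromeres, was at -0.05 (0.84), and was called higher with array medians made equal (0.57).

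MII replicate 1 was the lowest MII sample in 15 of the 21 member probe sets, against 8225 of all 21646 (38.0%). Its mean deviation from the MII mean was -0.15 over the members and 0.003 over all probe sets. H1f8 and Slbp, the members called higher, had their lowest MII value in that sample.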
